A study of Homo sapiens with 5 samples.

Results

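CHOP-high recovery cells were the 10% of cells with the most DDIT3 RNA in a library of recovery cells, sampled after 72 h of the inhibitor PF0517515. DDIT3 encodes CHOP, a transcription factor of the stress responses. They numbered 346 of the 3462 recovery cells kept, from 3679 barcodes. Cells were kept from 5000 unique molecular identifiers (UMIs, which count RNA molecules) and 1000 genes upward, with a mitochondrial share of UMIs no higher than 20%. The members were chosen by their DDIT3 UMIs per 10000 UMIs. They were compared with the bottom 50% of the same ranking, 1731 cells called CHOP-low here. The name CHOP-low is a rank within the recovery library alone. DDIT3 chose both groups and was left out of every readout.

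All libraries came from MDA-MB-468, a long-used line of human breast cancer cells that lacks hormone receptors and HER2 and has epithelial character. The study's title names inhibition of acetyl-CoA carboxylase (ACC), which makes malonyl-CoA for fatty acid synthesis, and PF0517515 is its inhibitor. The series held 5 single-cell libraries of this line, 1 per group: recovery cells after 72 h of PF0517515, cells given PF0517515 for 6 h, cells given it for 72 h, untreated cells at 0 h and untreated cells at 72 h. Of 15483 barcodes in all, 14911 were kept, and the labels gave no dose, vehicle or length of recovery. Cells of 1 library are not replicates of a condition, so no test was made. Ratios of summed counts carry exact 95% intervals that cover counting error only.

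CHOP sits at the end of a branch of the unfolded protein response. When unfolded proteins build up in the endoplasmic reticulum (ER), the sensor PERK (EIF2AK3) slows translation, which favours the transcription factor ATF4, and ATF4 switches on DDIT3. The sensors ATF6 and IRE1 (ERN1), with XBP1 acting for IRE1, raise chaperones and the machinery that removes misfolded proteins from the ER. ATF4 and CHOP can also be raised without ER stress, by lack of amino acids or by mitochondrial damage, and prolonged CHOP expression is linked to growth arrest and cell death.

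The value that chose the members is given as a description. DDIT3 ran from 8.16 to 26.2 UMIs per 10000 in CHOP-high cells, with a median of 10.2, and from 0 to 3.72 in CHOP-low cells, with a median of 2.12. A CHOP-high cell held 5 to 84 DDIT3 UMIs with a median of 26, and 108 of the CHOP-low cells (6.24%) held none. The ranking had no gap at the cut: the last member stood at 8.1646 and the next cell at 8.15987 UMIs per 10000. Both groups had similar depth, with a median of 24634 UMIs and 5158 genes per CHOP-high cell against 25602 UMIs and 5524 genes per CHOP-low cell. The mitochondrial share was also similar, at medians of 2.38% and 2.51%.

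Cells with this much DDIT3 were rare elsewhere in the series. Of the cells kept in the other libraries, 1 of 2996 at 6 h of inhibitor (0.0334%), 18 of 1868 at 72 h of inhibitor (0.964%, exact binomial interval 0.572 to 1.52%), 0 of 3700 untreated cells at 0 h (upper limit 0.0996%) and 2 of 2885 untreated cells at 72 h (0.0693%) reached the lowest CHOP-high cell. With every cell thinned at random to 5000 UMIs, cells above 5 DDIT3 UMIs made up 6.50% of recovery cells and 1.07% of cells at 72 h of inhibitor, which kept recovery highest at equal depth. The recovery library shared at most 3 barcodes with any other library.

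**Figure D1:**
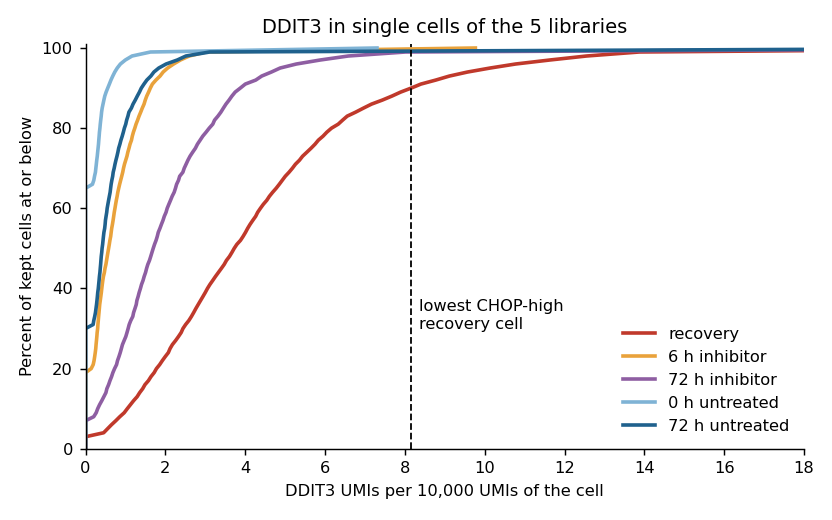
Percent of kept cells (y axis) at or below each level of DDIT3 UMIs per 10000 UMIs of the cell (x axis), 1 curve per library, with the lowest CHOP-high recovery cell as a dashed line. The recovery curve lies right of the others up to the single highest cell, which is at 72 h of inhibitor, and 0.964% of the cells at 72 h of inhibitor reach the line.

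The labelled cell type was checked on marker genes. All 8 epithelial markers (EPCAM, KRT8, KRT18, KRT19, CDH1, EGFR, KRT5 and KRT17) were detected, at a summed 7962 CPM (counts per fixed total, with DDIT3 left out) in CHOP-high cells and 7731 CPM in CHOP-low cells. A set of 20 markers of blood, endothelial, stromal and liver cells summed to 11.2 CPM in CHOP-high cells and 10.8 CPM in CHOP-low cells, with 12 of the 20 at 0 in CHOP-high cells and 6 in CHOP-low cells. CD68 was the most abundant of these in CHOP-high cells, at 7.97 CPM.

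CHOP-high recovery cells carried more RNA for the folding and clearing of proteins in the ER. The highest named gene was HSPA5, which encodes BiP, the main Hsp70 chaperone of the ER lumen. HERPUD1, a membrane protein of ER-associated degradation (ERAD), MANF, a small ER protein that binds BiP and can be secreted, and SDF2L1, an ER protein that works with BiP, stood close behind it. In all, 53 of 8554 measured genes (0.62%) were more than 1.5-fold higher in CHOP-high cells and 907 (10.6%) more than 1.5-fold lower. The split moved with scaling: 163 were higher and 382 lower with median-of-ratios scaling, which took the median log2 ratio of all genes to 0.02, against -0.14 by totals.

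HSPA5 (chr9:125234853-125241330, GRCh38, minus strand) measured 1328 CPM in CHOP-high cells and 652 CPM in CHOP-low cells, a log2 ratio of 1.03 (1.00 to 1.06). Per cell it ran from 0 through a median of 11.2 to 80.0 UMIs per 10000 in CHOP-high cells, and from 0 through 5.38 to 142 in CHOP-low cells. The groups overlapped widely, and the single highest cell was a CHOP-low cell. Nonetheless 153 CHOP-high cells (44.2%, exact binomial interval 38.9 to 49.6%) exceeded the 90th percentile of CHOP-low cells. HERPUD1 (chr16:56932048-56944863) measured 1208 CPM in CHOP-high cells and 619 CPM in CHOP-low cells, a log2 ratio of 0.96 (0.93 to 0.99). Its median was 11 UMIs per 10000 in CHOP-high cells and 5.20 in CHOP-low cells, and it also had 153 CHOP-high cells above that percentile.

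MANF (chr3:51385047-51389397) stood at 304 CPM in CHOP-high cells and 162 CPM in CHOP-low cells (log2 ratio 0.91, 0.85 to 0.98), and 144 CHOP-high cells (41.6%) exceeded the 90th percentile of CHOP-low cells. SDF2L1 (chr22:21642261-21644298) reached 425 CPM in CHOP-high cells and 243 CPM in CHOP-low cells (log2 ratio 0.81, 0.76 to 0.86), and 148 CHOP-high cells (42.8%) exceeded it. These genes overlapped between the groups in the same way, with cells at 0 in each. SELENOM, a selenoprotein of the ER, had a log2 ratio of 0.95 (0.77 to 1.13).

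The promoters of 4 of the 15 highest named genes are shown because a search found a stress element in each. ERSE, the ER stress response element that ATF6 binds together with NF-Y, was searched as CCAAT and CCACG with 9 bases of any kind between them, and ERSE-II as ATTGG and CCACG with 1 base between them. CARE, the C/EBP-ATF composite element bound by ATF4 with C/EBP proteins, was searched as TGATGNAA. Both strands were read, in windows of 250 bases before to 50 after each RefSeq start (GRCh38.p14). ERSE and ERSE-II both end in CCACG, so matches to them can overlap. Each line runs 5′ to 3′ on the gene's own strand, with motif matches in capitals.
HSPA5: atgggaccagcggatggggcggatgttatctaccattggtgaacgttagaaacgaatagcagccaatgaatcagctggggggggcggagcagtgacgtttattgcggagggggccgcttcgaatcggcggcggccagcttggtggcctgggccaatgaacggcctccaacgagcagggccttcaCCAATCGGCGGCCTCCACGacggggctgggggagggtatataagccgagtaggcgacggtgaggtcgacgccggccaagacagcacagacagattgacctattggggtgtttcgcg
HERPUD1: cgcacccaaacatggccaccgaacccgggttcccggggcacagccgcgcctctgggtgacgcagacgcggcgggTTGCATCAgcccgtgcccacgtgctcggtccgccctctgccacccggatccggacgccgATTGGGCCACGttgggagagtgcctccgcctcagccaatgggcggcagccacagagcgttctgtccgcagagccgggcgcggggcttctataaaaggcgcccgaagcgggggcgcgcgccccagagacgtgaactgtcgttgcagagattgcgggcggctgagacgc
SDF2L1: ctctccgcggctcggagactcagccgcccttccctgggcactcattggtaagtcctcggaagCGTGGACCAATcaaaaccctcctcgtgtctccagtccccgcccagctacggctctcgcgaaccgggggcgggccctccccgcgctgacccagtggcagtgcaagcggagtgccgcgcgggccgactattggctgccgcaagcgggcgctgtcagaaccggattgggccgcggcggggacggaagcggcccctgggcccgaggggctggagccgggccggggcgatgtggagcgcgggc
GADD45G: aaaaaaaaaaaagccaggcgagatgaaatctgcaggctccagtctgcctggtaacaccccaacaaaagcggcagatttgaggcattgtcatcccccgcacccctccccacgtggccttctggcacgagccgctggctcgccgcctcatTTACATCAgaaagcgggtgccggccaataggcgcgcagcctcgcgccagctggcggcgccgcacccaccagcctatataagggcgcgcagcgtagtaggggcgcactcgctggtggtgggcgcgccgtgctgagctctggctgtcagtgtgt
The HSPA5 window (chr9:125241294-125241593, minus strand) holds an ERSE as printed. The HERPUD1 window (chr16:56931892-56932191, plus strand) holds a CARE on the opposite strand, printed first, and then an ERSE-II. SDF2L1 (chr22:21642052-21642351, plus strand) has an ERSE-II on the opposite strand, and GADD45G (chr9:89604762-89605061, plus strand), a stress gene described further on, a CARE on the opposite strand.

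ERSE occurs in 27 of 35116 RefSeq promoter windows (0.0769%), ERSE-II in 19 (0.0541%) and CARE in 1270 (3.62%). Of the 8554 measured genes 6892 matched a window, and so did 43 of the 53 genes called higher. HSPA5, HERPUD1 and SDF2L1 were the 3 of those 43 with an ERSE or ERSE-II, and 6 of the 43 held a CARE. Among the 12 measured genes with an ERSE, 8 were above 0 and 4 below, with a median log2 ratio of 0.12 in CHOP-high cells. They include HSP90B1, the ER Hsp90, at 0.42, SERP1, a protein of the ER translocon, at 0.42, and calreticulin (CALR) at 0.33. The lowest were TMEM120A at -0.33, calnexin (CANX) at -0.27 and the ER oxidase ERO1B at -0.27. The 14 measured genes with an ERSE-II had 6 above 0 and 8 below, with a median of -0.09. Of them, 2 were more than 1.5-fold higher and 2 lower. ERSE and ERSE-II genes together, 26 in all, had a median of 0.0062. The 173 measured genes with a CARE had a median of -0.19. Among all 8554 measured genes 2908 were above 0 and 5646 below, with a median of -0.14. Of all genes, 0.62% were more than 1.5-fold higher and 10.6% lower. A match is a string of letters in a window and says nothing of binding in these cells.

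All 22 genes of the ER chaperone list were measured, and 18 were higher and 4 lower in CHOP-high cells, with a median log2 ratio of 0.16. Over all 8554 genes 2908 were higher and 5646 lower, with a median of -0.14. Of the 22 chaperone genes, 3 (HSPA5, MANF and SDF2L1) were more than 1.5-fold higher and 0 more than 1.5-fold lower. DNAJB9, a co-chaperone of BiP, had 49.0 CPM in CHOP-high cells and 34.2 CPM in CHOP-low cells (log2 ratio 0.52, 0.37 to 0.67). Several further members, chosen after their values were seen, were higher by less: the co-chaperone DNAJB11 at 0.48, the disulfide isomerase PDIA4 at 0.44 and HSP90B1 at 0.42. The 4 lower members, also chosen after their values were seen, were SIL1, which exchanges nucleotide on BiP, at -0.33, the isomerase PDIA5 at -0.31, CANX at -0.27 and TXNDC5 at -0.12.

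Among 19 measured ERAD genes 12 were higher and 7 lower, with a median log2 ratio of 0.09, and 2 were more than 1.5-fold higher and 1 lower. For all 8554 genes the median was -0.14, with 0.62% more than 1.5-fold higher and 10.6% lower. DERL2, part of the channel that exports misfolded proteins, measured 76.3 CPM in CHOP-high cells and 50.8 CPM in CHOP-low cells (0.59, 0.47 to 0.71). MARCH6, a ubiquitin ligase of the ER membrane, went the other way and had 84.4 CPM in CHOP-high cells and 127 CPM in CHOP-low cells (-0.59, -0.70 to -0.49). The 23 genes of ER translocation and secretion had a median of 0.09, with 15 higher and none past 1.5-fold. SEC61G, a subunit of the translocation channel, was higher by a log2 ratio of 0.35.

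The sensors and regulators were split evenly. Of 10 measured, 5 were higher and 5 lower, and none passed 1.5-fold, beside 2908 higher and 5646 lower among all 8554 genes. XBP1, the transcription factor downstream of IRE1, had a log2 ratio of 0.20 (0.13 to 0.27), ERN1 0.30 (0.10 to 0.49) and ATF6 -0.03 (-0.16 to 0.11). EIF2AK3, which encodes PERK, had 53.5 CPM in CHOP-high cells and 78.4 CPM in CHOP-low cells, a log2 ratio of -0.55 (-0.69 to -0.42). It is a long gene, and with cells ranked within quintiles of their share of long-gene UMIs, as described for the lower genes, its log2 ratio was 0.09.

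Genes of the ATF4 branch were higher unevenly. Of 18 measured genes of the ATF4-CHOP list 11 were higher and 7 lower, with a median log2 ratio of 0.08, and TRIB3 alone was more than 1.5-fold higher. The median over all 8554 genes was -0.14, and 0.62% of them were more than 1.5-fold higher. TRIB3, a pseudokinase that is a target of ATF4 and CHOP and feeds back on both, measured 206 CPM in CHOP-high cells and 126 CPM in CHOP-low cells (0.71, 0.63 to 0.78). Per cell it ran from 0 through 1.91 to 7.97 UMIs per 10000 in CHOP-high cells and from 0 through 1.14 to 20.6 in CHOP-low cells, and 110 CHOP-high cells (31.8%) exceeded the 90th percentile of CHOP-low cells.

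ATF4 itself had 372 CPM in CHOP-high cells and 342 CPM in CHOP-low cells, a log2 ratio of 0.12 (0.07 to 0.18), and 50 CHOP-high cells (14.5%) exceeded the 90th percentile. ATF4 is controlled largely at translation, which RNA counts do not show. The stress regulator ATF3 had a log2 ratio of 0.41 (0.31 to 0.51), DDIT4, an inhibitor of mTORC1, 0.41 (0.37 to 0.45), and PPP1R15A, the CHOP target GADD34 that restores translation, 0.37 (0.28 to 0.46). CHAC1, a glutathione-degrading enzyme, and ASNS, asparagine synthetase, were below 10 CPM in each group, with log2 ratios of 0.26 (-0.09 to 0.59) and 0.29 (-0.29 to 0.83). KLHL24 at -0.56 and JDP2 at -0.51 were the lowest measured members of the list.

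The amino acid side of the ATF4 programme had list medians from -0.30 to 0.06, beside -0.14 over all genes. Genes of serine, one-carbon and asparagine synthesis had a median log2 ratio of 0.06 over 11 measured, and tRNA synthetases 0.01 over 20. Of 9 measured amino acid transporters 6 were lower, with a median of -0.30 and none past 1.5-fold, beside 5646 of 8554 lower among all genes. They include SLC38A1, which takes up glutamine, at -0.42, SLC7A11, the cystine carrier, at -0.37, and SLC7A5, which takes up leucine, at -0.31. With cells ranked within quintiles of long-gene share, the median of the list turned to 0.12, and SLC7A11 stood at 0.31 and SLC38A1 at -0.07.

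Genes tied to CHOP and cell death were mixed in sign. Of 17 measured, 10 were higher and 7 lower, with a median log2 ratio of 0.04, and 2 were more than 1.5-fold higher. Among all 8554 genes 2908 were higher and 5646 lower, with a median of -0.14 and 0.62% more than 1.5-fold higher. GADD45G, a growth arrest and DNA damage gene, had 168 CPM in CHOP-high cells and 102 CPM in CHOP-low cells (0.72, 0.64 to 0.80), and 67 CHOP-high cells (19.4%) exceeded the 90th percentile of CHOP-low cells. BAK1, a pore former of the mitochondrial outer membrane, had 62.4 CPM in CHOP-high cells and 40.4 CPM in CHOP-low cells (0.63, 0.49 to 0.76). The cell cycle inhibitor CDKN1A stood at 0.43 (0.28 to 0.58), the BH3-only gene BBC3 at 0.21 and GADD45A at 0.19.

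A pair of textbook CHOP targets were lower by totals. The death receptor TNFRSF10B (DR5) had 32.5 CPM in CHOP-high cells and 45.0 CPM in CHOP-low cells, a log2 ratio of -0.47 (-0.65 to -0.29). The ER oxidase ERO1A stood at -0.37 (-0.55 to -0.20). Within quintiles of long-gene share they were at 0.30 and -0.05, so the sign of TNFRSF10B turned.

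**Figure D2:**
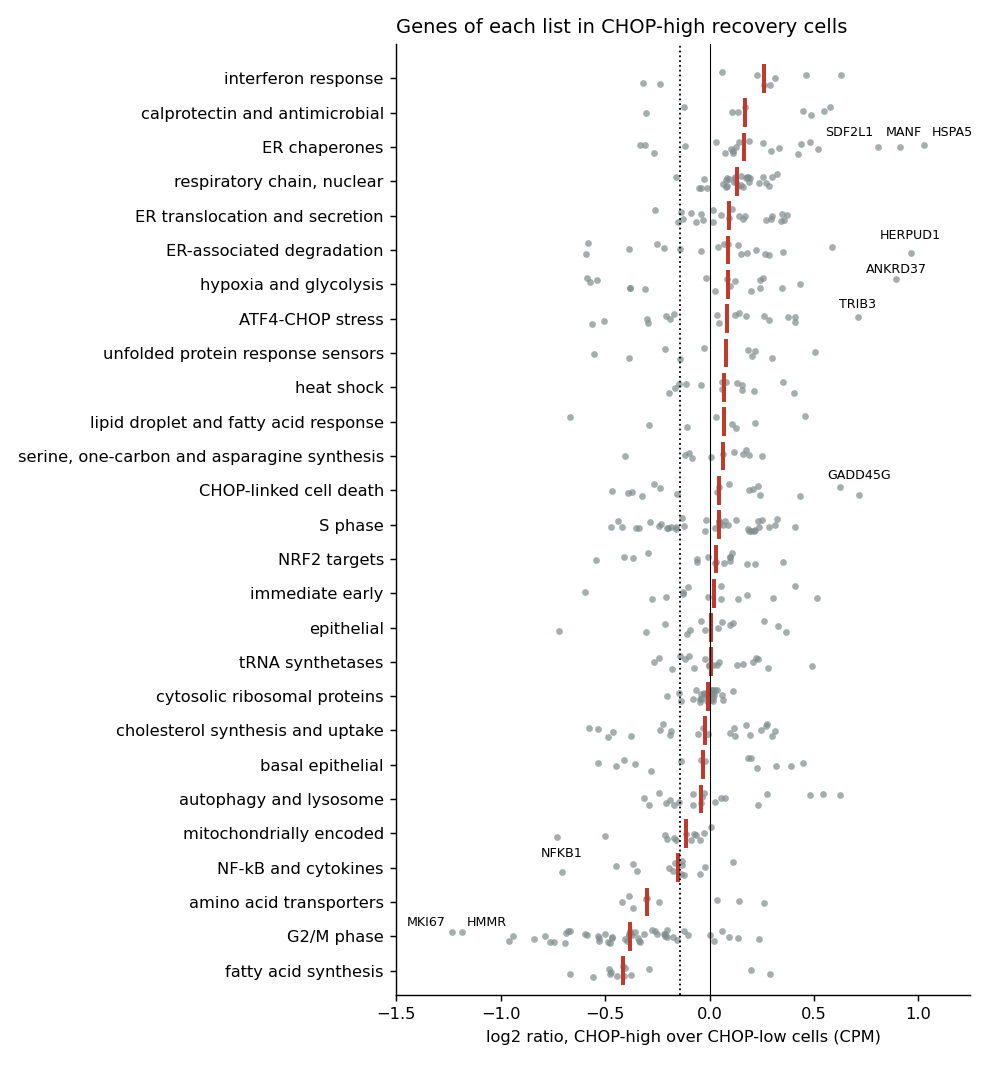
Log2 ratio of CPM, CHOP-high over CHOP-low recovery cells (x axis), for each measured gene (dots, spread vertically for legibility) of the gene lists (rows), with the median of the list as a red bar and the median of all genes, -0.14, as a dotted line. HSPA5, MANF, SDF2L1 and HERPUD1 stand apart on the right of the ER lists, and 46 of 52 G2/M genes lie below 0.

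The ER genes climbed with DDIT3 over the whole recovery library, not at the cut alone. With the kept cells divided into 10 deciles by DDIT3, HSPA5 measured 544 CPM in decile 1, 742 CPM in decile 5 and 1328 CPM in decile 10. HERPUD1 measured 462, 739 and 1208 CPM in the same deciles, and MANF 121, 190 and 304 CPM. For each of these genes, every decile was higher than the one before. TRIB3 measured 97.1, 141 and 206 CPM, and GADD45G 87.6, 109 and 168 CPM. ATF4 flattened early, at 321 CPM in decile 1, 374 CPM in decile 6 and 372 CPM in decile 10. MKI67, the Ki-67 proliferation gene, ran down through 152, 82.6 and 47.0 CPM in deciles 1, 5 and 10. Cells of decile 1 were shallower, with a median of 19472 UMIs.

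**Figure D3:**
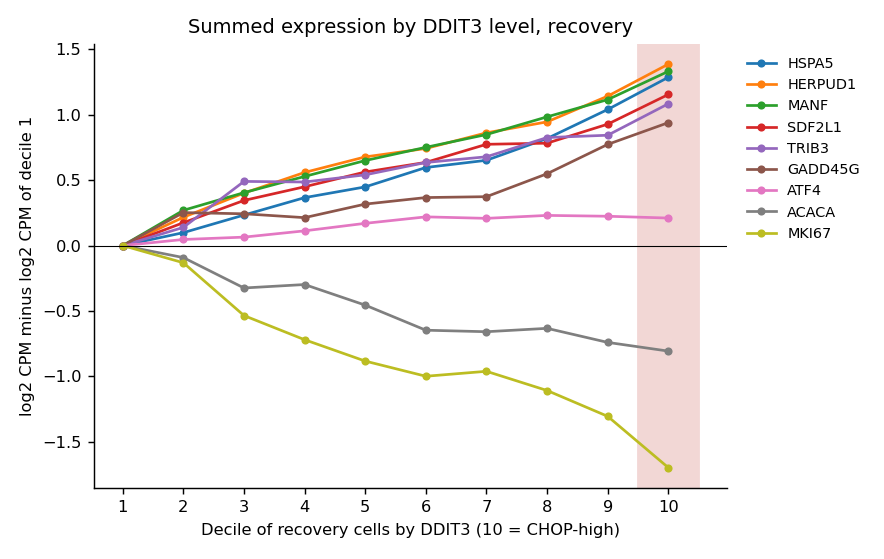
Log2 CPM of 9 genes relative to decile 1 (y axis) in deciles of recovery cells by DDIT3 (x axis), with the CHOP-high cells as shaded decile 10. HSPA5, HERPUD1, MANF and SDF2L1 climb throughout, ATF4 levels off, and MKI67 and ACACA run down.

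The members were not uniform. The UMIs of the 22 ER chaperone genes were summed per cell after thinning to 5000 UMIs. The 90th percentile of CHOP-low cells, 33 UMIs, was exceeded by 122 CHOP-high cells (35.3%, exact binomial interval 30.2 to 40.5%) and, as the cut fixes, by 163 CHOP-low cells (9.42%). The ATF4-CHOP sum exceeded its own percentile of 22 UMIs in 58 CHOP-high cells (16.8%, 13 to 21.1%) and 147 CHOP-low cells (8.49%). Both sums were high in 20 CHOP-high cells (5.78%) and 24 CHOP-low cells (1.39%), the ER sum alone in 102 (29.5%) against 139 CHOP-low cells (8.03%), and the ATF4-CHOP sum alone in 38 (11%) against 123 CHOP-low cells (7.11%). Neither sum was high in 186 CHOP-high cells (53.8%) and 1445 CHOP-low cells (83.5%). These classes are ranges of a continuous value, with 36 CHOP-high cells within 1 UMI of the ER cut and 40 within 1 UMI of the other.

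Many of the lower genes were long, and 4 of the 10 lowest named genes are mitotic. Of those 10, MTCL1, a microtubule crosslinker, had 12.9 CPM in CHOP-high cells and 31.8 CPM in CHOP-low cells (log2 ratio -1.31, -1.59 to -1.04). ST6GALNAC5, a sialyltransferase, had 69.0 CPM against 170 CPM in CHOP-low cells (-1.30), and the growth factor receptor IGF1R 10.4 CPM against 25.1 CPM in CHOP-low cells (-1.27). The mitotic genes KIF14, MKI67, ASPM and HMMR followed at -1.27, -1.24, -1.21 and -1.19. CHODL, CEMIP2 and CSF1, which encodes a macrophage growth factor, completed the set at -1.22, -1.21 and -1.14.

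Genomic span moved with the ratio. Among protein-coding genes in deciles of span, the shortest had a median log2 ratio of 0.13, with 18 of 828 more than 1.5-fold higher and 5 more than 1.5-fold lower. The longest had a median of -0.49, with 0 higher and 294 of 828 lower. The share of UMIs from genes of the longest decile had a median of 3.24% in CHOP-high cells and 4.27% in CHOP-low cells. The nuclear RNAs moved with it: MALAT1 took a median of 0.461% of UMIs in CHOP-high cells and 1.33% in CHOP-low cells, and NEAT1 0.142% and 0.202%.

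**Figure D4:**
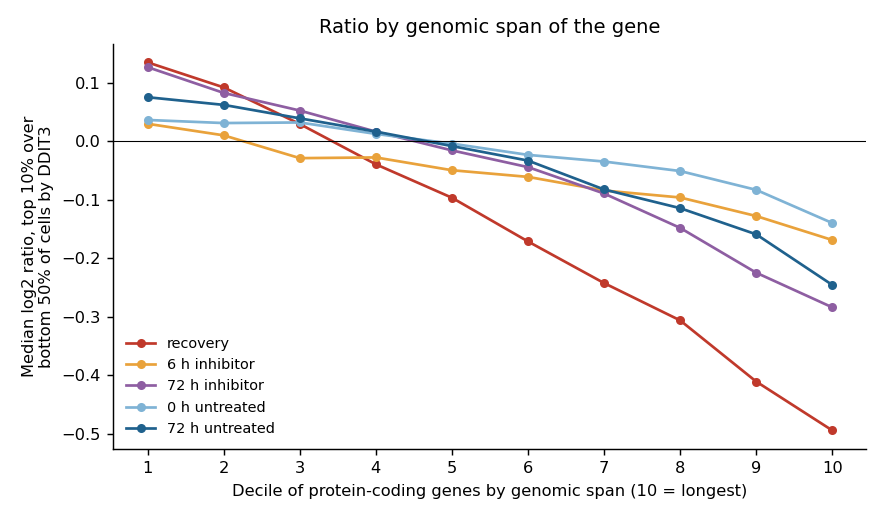
Median log2 ratio, top 10% over bottom 50% of cells by DDIT3 (y axis), in deciles of protein-coding genes by genomic span from GENCODE 29 (x axis), 1 line per library. All 5 lines slope down, and the recovery line runs from 0.13 for the shortest genes to -0.49 for the longest.

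The comparison was repeated with cells ranked by DDIT3 within quintiles of their long-gene share, a choice made after seeing the data. It left 71 genes more than 1.5-fold lower, 55 of them among the 907, and 48 higher, 24 of them among the 53. HSPA5 stood at 1.12 there, HERPUD1 at 0.94, MANF at 0.82, SDF2L1 at 0.61, TRIB3 at 0.70 and GADD45G at 0.69. ST6GALNAC5 and IGF1R were at -0.47 and -0.57, while MKI67, ASPM and HMMR were at -1.17, -1.23 and -1.15. Ranking within quintiles of MALAT1 share gave 136 lower and 31 higher, with HSPA5 at 1.16.

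Mitotic genes were lower as a group. Of 52 G2/M genes 46 were lower and 6 higher, with a median log2 ratio of -0.38, and 14 were more than 1.5-fold lower, beside 5646 of 8554 lower and 10.6% more than 1.5-fold lower among all genes. Within quintiles of long-gene share the median was -0.45. MKI67 had 47.0 CPM in CHOP-high cells and 111 CPM in CHOP-low cells (-1.24, -1.38 to -1.10). Per cell it ran from 0 through a median of 0 to 4.12 UMIs per 10000 in CHOP-high cells and from 0 through 0.463 to 26.3 in CHOP-low cells. Only 2 CHOP-high cells (0.578%) exceeded the 90th percentile of CHOP-low cells. The kinetochore genes CENPE and CENPF stood at -0.96 and -0.94. CKS2, a subunit of the cyclin-dependent kinases, and UBE2C, a ubiquitin-conjugating enzyme of mitotic exit, were chosen after their values were seen and stood at 0.0016 and 0.02. Summed G2/M UMIs exceeded the 90th percentile of CHOP-low cells in 20 CHOP-high cells (5.78%, 3.57 to 8.79%) and 169 CHOP-low cells (9.76%). Cells ranked between the groups had a share like that of CHOP-high cells, 80 of 1385 (5.78%). The 37 measured S phase genes had a median of 0.04, with 20 higher, 17 lower and none past 1.5-fold.

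Genes of fatty acid synthesis, the pathway that ACC feeds, had lower values by totals in CHOP-high cells. Of 13 measured genes 11 were lower and 2 higher, with a median log2 ratio of -0.41, and ACSL3, an acyl-CoA synthetase, was the 1 more than 1.5-fold lower. Over all genes 5646 of 8554 were lower and 10.6% more than 1.5-fold lower. ACACA, which encodes the ACC1 enzyme itself, had 25.9 CPM in CHOP-high cells and 38.2 CPM in CHOP-low cells (-0.56, -0.76 to -0.37). ACLY, which supplies cytosolic acetyl-CoA, stood at -0.48, and the desaturase SCD at -0.48 (-0.62 to -0.35). ACACB was below 10 CPM in each group, at -0.19 (-0.77 to 0.35). Within quintiles of long-gene share, the median of the list was -0.06, ACACA was at -0.04, ACLY at -0.13 and SCD at -0.26. Genes of cholesterol synthesis and uptake had a median of -0.02.

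A few inflammatory and secreted genes were higher as well. SERPINB3 and SERPINB4, which encode protease inhibitors, had log2 ratios of 1.00 (0.79 to 1.21) and 0.99. They are near-identical copies whose reads may be split between them, so each value is uncertain. The S100A8 and S100A9 genes of calprotectin had 1098 CPM against 735 CPM in CHOP-low cells (0.58) and 11231 CPM against 8013 CPM in CHOP-low cells (0.49). LCN2, an iron-scavenging lipocalin, stood at 0.55. Of 9 measured genes of the calprotectin and antimicrobial list, 7 were higher and 2 lower, with a median of 0.17 and none past 1.5-fold. Of 9 measured interferon response genes 7 were higher, with a median of 0.26 and OAS1 at 0.63. Of 14 NF-kB and cytokine genes 13 were lower, with a median of -0.15, which was 0.0041 under scaling by median of ratios. Among all 8554 genes 2908 were higher and 5646 lower, with a median of -0.14. NFKB1 stood at -0.71.

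Other programmes differed little. Of 13 mitochondrially encoded genes 12 were lower, with a median log2 ratio of -0.11, a sign that turned to 0.046 with median of ratios. Among all 8554 genes 5646 were lower and 2908 higher, with a median of -0.14, so the mitochondrial median was not below that of all genes. Of 30 nuclear genes of the respiratory chain 25 were higher, with a median of 0.13, which was -0.0057 within quintiles of long-gene share. Cytosolic ribosomal proteins had a median of -0.0057 over 30 genes, heat shock genes 0.07 over 14, targets of the oxidative stress factor NRF2 0.03 over 17, and hypoxia and glycolysis genes 0.09 over 18.

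More than 2-fold lower were 63 genes (0.736%). More than 2-fold higher were 4 (0.0468%): HSPA5, SERPINB3 and, under the level for naming and so chosen after their values were seen, the peptide gene EDN2 and the cytokine gene TSLP. EDN2 had 17.4 CPM in CHOP-high cells and 6.90 CPM in CHOP-low cells, and TSLP 11.9 CPM against 5.59 CPM in CHOP-low cells. Other named genes among the 15 highest were ANKRD37, a gene raised by hypoxia, at 0.89, SCNM1, a splicing factor of minor introns, at 0.82, CST6, a cystatin, at 0.76, TRMT6, a subunit of a tRNA methyltransferase, at 0.75, ZNRD2 at 0.70 and TMEM50B at 0.69. MAP1LC3B, the LC3B protein of autophagosomes, had 469 CPM in CHOP-high cells and 304 CPM in CHOP-low cells (0.63, 0.58 to 0.67). It was the 1 gene of the autophagy and lysosome list more than 1.5-fold higher. Of the 20 measured genes of that list 8 were higher and 12 lower. Their median was -0.04, beside -0.14 over all genes.

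The same split was made within each of the other libraries, where the cells had no part in choosing the members. The top 10% of cells held a median of 7 DDIT3 UMIs at 6 h of inhibitor, 23 at 72 h of inhibitor, 2 in untreated cells at 0 h and 5 in untreated cells at 72 h, against 26 in CHOP-high recovery cells. At 0 h 65.2% of cells had no DDIT3 UMI, so membership there rested on few molecules. At 72 h of inhibitor 207 of 8799 genes (2.35%) were more than 1.5-fold higher in the top cells and 519 (5.9%) lower. The counts were 37 (0.407%) and 82 (0.902%) of 9091 at 6 h of inhibitor, 52 (0.595%) and 13 (0.149%) of 8734 in untreated cells at 0 h, and 61 (0.656%) and 167 (1.8%) of 9297 in untreated cells at 72 h.

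The number of calls shared with recovery was highest at 72 h of inhibitor, the library with the most calls of the other 4. Of the 53 genes called higher in recovery, 30 were also called at 72 h of inhibitor, 56.6% of the recovery calls and 14.5% of the calls there. The shared number was 3 at 6 h of inhibitor (8.11% of the calls there), 4 in untreated cells at 0 h (7.69%) and 7 in untreated cells at 72 h (11.5%). Of the 907 lower genes, 254 were also called at 72 h of inhibitor (28.0% of the recovery calls and 48.9% of the calls there). The number was 23 at 6 h of inhibitor (28.0% of the calls there), 7 in untreated cells at 0 h (53.8%) and 43 in untreated cells at 72 h (25.7%), so as a share of the calls there the untreated cells at 0 h were highest.

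In the 2 libraries after long exposure to the inhibitor, DDIT3 went with ER chaperones. HSPA5 had 732 CPM in the top cells at 72 h of inhibitor and 235 CPM in the bottom 50% there, a log2 ratio of 1.64 (1.59 to 1.68). It was at 81.2 and 75.1 CPM at 6 h of inhibitor (0.11), 87.6 and 73.5 CPM in untreated cells at 0 h (0.25) and 166 and 123 CPM in untreated cells at 72 h (0.43). The median of the ER chaperone list was 0.16 in recovery, -0.12 at 6 h of inhibitor, 0.58 at 72 h of inhibitor, 0.01 in untreated cells at 0 h and -0.02 in untreated cells at 72 h. For all genes the medians were -0.14, -0.06, -0.05, -0.02 and -0.04 in the same sequence. MANF stood at 0.91, -0.18, 1.59, 0.21 and 0.38 in that sequence of libraries. HERPUD1 was higher in the top cells of every library, at 0.96, 0.50, 1.41, 0.91 and 0.90. Summed over the ER chaperone list, CHOP-high and CHOP-low recovery cells had 6160 and 4574 CPM. The top and bottom cells at 72 h of inhibitor had 4465 and 2851 CPM, so the larger ratio there sat on a lower level.

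In these ratios within each library, the ATF4 branch showed the other order. The median of the ATF4-CHOP list was 0.08 in recovery, 0.37 at 6 h of inhibitor, 0.09 at 72 h of inhibitor, 0.48 in untreated cells at 0 h and 0.38 in untreated cells at 72 h. The medians of all genes also differed, at -0.14, -0.06, -0.05, -0.02 and -0.04 in the same sequence. TRIB3 stood at 0.71, 0.92, 0.45, 1.08 and 0.97, and DDIT4 at 0.41, 0.87, 0.43, 1.70 and 1.05, in the same sequence. GADD45G stood at 0.72, 1.77, 0.21, 1.72 and 1.44, on a level over all kept cells of 118 CPM in recovery, 4.44 CPM at 6 h of inhibitor, 310 CPM at 72 h of inhibitor, 5.07 CPM in untreated cells at 0 h and 8.64 CPM in untreated cells at 72 h. Genes of serine, one-carbon and asparagine synthesis had medians of 0.06, 0.31, 0.00, 0.51 and 0.17. As summed CPM of the ATF4-CHOP list the order differed, with 3303 CPM in CHOP-high and 2921 CPM in CHOP-low recovery cells. The top and bottom cells had 2294 and 1685 CPM at 6 h of inhibitor and 3387 and 3085 CPM at 72 h of inhibitor. In untreated cells these were 1750 and 1154 CPM at 0 h and 2428 and 1791 CPM at 72 h. CHOP-low recovery cells held more than the top cells at 6 h of inhibitor or in either untreated library. The differences between libraries rest on 1 library each and were not tested.

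Mitotic genes were lower in the top cells of both inhibitor libraries as well. The G2/M median was -0.38 in recovery, -0.43 at 6 h of inhibitor, -0.73 at 72 h of inhibitor, 0.00 in untreated cells at 0 h and -0.15 in untreated cells at 72 h. Medians of all genes were -0.14, -0.06, -0.05, -0.02 and -0.04 in the same sequence. The span trend was present in every library and steepest in recovery, with medians for the longest decile of -0.49, -0.17, -0.28, -0.14 and -0.25. MALAT1 took a median of 0.462% of UMIs in the top cells at 72 h of inhibitor against 0.891% in the bottom 50% there. At 6 h of inhibitor the shares were 0.633% and 0.678%, in untreated cells at 0 h 0.130% and 0.192%, and in untreated cells at 72 h 0.731% and 0.862%.

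**Figure D5:**
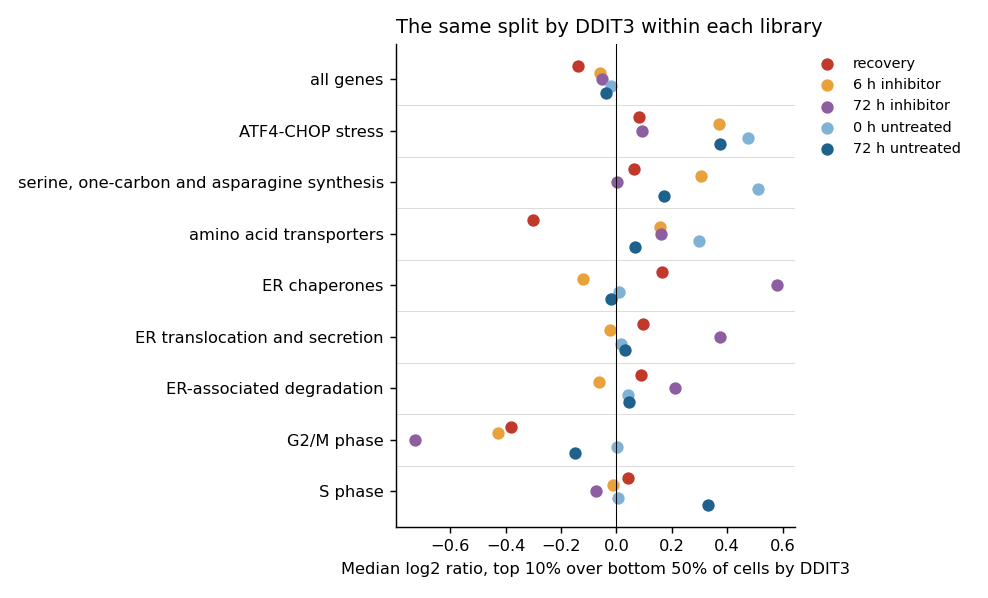
Median log2 ratio, top 10% over bottom 50% of cells by DDIT3 (x axis), of 8 gene lists and of all genes (rows), 1 dot per library. By this ratio the ER lists are highest at 72 h of inhibitor and second highest in recovery. The ATF4-CHOP list is near 0.1 in both and at 0.37 or above in the others. Levels are not shown.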

How the data were processed

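Values were UMI counts per gene and cell as deposited by the authors, made with Cell Ranger 7.1.0 on GRCh38 per the submitters' processing notes, with 36601 features. The sources used here do not give the annotation release or whether intronic reads were counted. Counts were summed over the cells of each group, divided by the group's total and given as CPM. A gene counted as measured if either group reached 10 CPM. Exact Clopper-Pearson 95% intervals on the ratio cover counting error only. With 1 library per group no test was made, and a call is a ratio past 1.5-fold. Ties in DDIT3 were broken by a seeded random order. No clusters were made and doublets were not removed: 2.60% of CHOP-high and 3.70% of CHOP-low cells were among the 5% of cells with most UMIs. Named genes were the 15 highest and 10 lowest at 20 CPM or more, up to 4 per list over 29 lists (594 genes) and a set of stress genes. Members and lists were chosen with earlier results of these data known. Gene spans came from GENCODE 29, promoters from RefSeq GRCh38.p14. The ratio code was checked on simulated counts. The tools were matplotlib 3.10.9, pandas 2.3.3, scipy 1.17.1, numpy 2.4.6 and Python 3.11.15.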

Additional observations from a re-analysis of the deposited data

Results flagged for a closer look

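OLFML3 and GRB10 passed 1.5-fold in opposite directions in 2 libraries when each was split by DDIT3. OLFML3, a secreted matrix protein, had 26.4 CPM in CHOP-high recovery cells and 17.5 CPM in CHOP-low recovery cells (log2 ratio 0.59). At 72 h of inhibitor it had 9.78 CPM in the top 10% and 21.2 CPM in the bottom 50% (-1.12). GRB10, an adaptor of the insulin receptor, had 15.7 CPM in CHOP-high and 24.1 CPM in CHOP-low recovery cells (-0.61), and 18.6 CPM in the top against 10.3 CPM in the bottom untreated cells at 0 h (0.85). Each rests on 1 library, and the difference was not tested.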

How the results depend on the processing

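No paired analysis was possible because each group was 1 library and no replicate numbers were given. The 53 genes called higher became 10 when cells were ranked after thinning to 5000 UMIs, 107 with the top 5%, 19 with the top 20%, 197 against the bottom 10%, 12 against all other 90%, 163 with median-of-ratios scaling, 140 with trimmed mean of M values, 1849 with no expression minimum, 26 with a 50 CPM minimum, 82 in cells low in S phase and G2/M genes, and 31 within MALAT1 quintiles. The 907 called lower became 274 with the thinned ranking, 2405 against the bottom 10%, 316 against all other 90%, 382 with median of ratios, 420 with trimmed mean of M values, 3168 with no minimum, 183 with 50 CPM, 71 within long-gene quintiles and 136 within MALAT1 quintiles. Both quintile settings were chosen after seeing the data. The G2/M median was -0.20 with the thinned ranking, -0.53 against the bottom 10%, -0.28 against the other 90%, -0.22 and -0.24 with the scalings and -0.17 in low-cycle cells. Signs turned for mitochondrially encoded genes (0.032 thinned, 0.046 with median of ratios and 0.030 with trimmed mean of M values), for NF-kB and cytokines (0.0041 with median of ratios, 0.19 in low-cycle cells, 0.025 and 0.069 within long-gene and MALAT1 quintiles) and for the nuclear respiratory chain (-0.0057 within long-gene quintiles). The amino acid transporter median ran from -0.43 to 0.12, highest within long-gene quintiles, fatty acid synthesis from -0.61 to -0.06, S phase from -0.08 to 0.20, the sensors from -0.07 to 0.24, autophagy from -0.13 to 0.12, cholesterol from -0.07 to 0.14, basal epithelial from -0.10 to 0.18 and ribosomal proteins from -0.12 to 0.15. Medians of NRF2 targets, epithelial, immediate early, lipid droplet and tRNA synthetase genes also crossed 0. The cause was not tested. The ER chaperone median ran from 0.11 to 0.32, ERAD from -0.02 to 0.25 and ATF4-CHOP from -0.0069 to 0.24. HSPA5 (0.70 to 1.29), HERPUD1 (0.67 to 1.39), MANF (0.65 to 1.34) and MKI67 (-1.70 to -0.76) passed 1.5-fold in 18 of 18 alternatives.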
